A study of Mus musculus with 6 samples.

Results

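Expression of 7 receptors of the TNF receptor superfamily was followed in T cells from lymph nodes that are deficient in Ezh2, the enzyme of the Polycomb complex that places a silencing methyl mark on histone H3. The receptors are Tnfrsf4 (OX40), Tnfrsf9 (CD137), Tnfrsf18 (GITR), Cd27, Tnfrsf1a, Tnfrsf1b and Fas. All probe sets whose only gene symbol in the platform annotation is one of these 7 genes were taken, which gave 10 probe sets of the 45101 in the table, for 7 of 18193 genes with such a probe set. The groups are lymph node T cells deficient in Ezh2 (3 arrays) and, as controls, Ezh2 fl/fl lymph node T cells (3 arrays), whose Ezh2 alleles in the usual notation are both flanked by loxP sites. Total RNA was hybridised to Affymetrix mouse arrays, each holding 1 sample. The labels name no Cre driver, age, sex or treatment, and do not say how the T cells were isolated or whether the samples came from separate animals. The p-values are therefore set against the spread among these 6 samples only, part of which may be technical.

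Receptors of this family are membrane proteins that bind trimeric ligands of the TNF family through cysteine-rich repeats. Fas and Tnfrsf1a carry a cytoplasmic death domain and can start caspase-dependent death. The remaining receptors named above recruit TRAF adaptors, activate NF-kappaB and act as costimulators of T cells. Tnfrsf4 and Tnfrsf9 appear on conventional T cells after activation. Tnfrsf18, Tnfrsf4 and Tnfrsf1b are also known for their high expression on regulatory T cells, while Cd27 is present on naive T cells.

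Values below are quantile-normalised intensities, and a log2 difference is Ezh2 deficient minus Ezh2 fl/fl on the scale log2(intensity + 43.3), which understates changes of dim probe sets. Differences were tested with limma over 27022 probe sets, with a call at a Benjamini-Hochberg adjusted p under 0.05. The arrays had median deposited intensities of 163.3 to 188.1, and Ezh2 fl/fl replicate 1, the array with the highest median, lay apart from the other 5 on the first principal component (30.6% of the variance). Receptor differences are therefore also given without it. The Ezh2 probe set read 282, 289 and 276 in the Ezh2 deficient arrays, against 579, 684 and 801 in the Ezh2 fl/fl arrays (log2 difference -1.16, adjusted p = 0.0705 by limma). The 10 T cell markers measured, Cd3e and Cd3d among them, were all bright enough to be tested, and their summed intensity was 85515 to 86767 in the Ezh2 deficient arrays and 83637 to 86150 in the Ezh2 fl/fl arrays. Of 8 B cell markers, Cd79a, Fcrla and Blnk lay below the filter, whereas the immunoglobulin gene Ighm stood out. Its brightest probe set read 10826, 9700 and 10843 in the Ezh2 deficient arrays and 10722, 10740 and 12137 in the Ezh2 fl/fl arrays. The next brightest averaged 6922 in Ezh2 deficient and 6809 in Ezh2 fl/fl cells, and the other Ighm probe sets were far dimmer.

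None of the 9 receptor probe sets that passed the filter on dim signal was called, where the call rate over all tested probe sets was 0.00370%. Tnfrsf4 and Tnfrsf18 came closest, each at about the same distance below the controls and with groups that did not overlap. Groups lay apart with the deficient arrays lower for these 2 of the 9 probe sets, and for 6.54% of all tested probe sets. They lay apart with the deficient arrays higher for 0 of the 9, and for 6.55% of all. At an unadjusted limma p under 0.05 the counts were 2 lower and 0 higher, where 3.38% of all probe sets were lower and 3.84% higher, or 7.22% in either direction. Of the 9 probe sets 6 had a negative and 3 a positive difference, with a median of -0.097 against -0.0029 over all tested probe sets. The 10th probe set, one of the 3 for Tnfrsf9, lay below the filter and was not tested.

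The upstream sequence of the Tnfrsf4 and Tnfrsf18 genes is shown because these neighbouring genes had near-equal differences, and that of Tnfrsf1b because it holds the most CpG dinucleotides of the 7 genes. CpG-dense promoters are known sites of Polycomb binding in mammalian cells. Each line gives the 250 bases before the RefSeq start on the gene's strand in GRCm38.p6, with every CpG in capitals. The windows are chr4:156013445-156013694 on the plus strand for Tnfrsf4, chr4:156026072-156026321 on the plus strand for Tnfrsf18 and chr4:145246871-145247120 on the minus strand for Tnfrsf1b.
Tnfrsf4: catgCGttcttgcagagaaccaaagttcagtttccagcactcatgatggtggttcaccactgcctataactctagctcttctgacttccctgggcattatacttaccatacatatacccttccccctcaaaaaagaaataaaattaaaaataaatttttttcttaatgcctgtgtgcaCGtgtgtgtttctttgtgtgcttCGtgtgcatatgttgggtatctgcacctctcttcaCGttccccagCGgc
Tnfrsf18: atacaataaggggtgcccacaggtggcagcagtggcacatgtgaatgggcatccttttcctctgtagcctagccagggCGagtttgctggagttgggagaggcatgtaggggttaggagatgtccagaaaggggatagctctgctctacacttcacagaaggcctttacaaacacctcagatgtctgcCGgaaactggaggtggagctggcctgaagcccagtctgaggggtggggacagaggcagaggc
Tnfrsf1b: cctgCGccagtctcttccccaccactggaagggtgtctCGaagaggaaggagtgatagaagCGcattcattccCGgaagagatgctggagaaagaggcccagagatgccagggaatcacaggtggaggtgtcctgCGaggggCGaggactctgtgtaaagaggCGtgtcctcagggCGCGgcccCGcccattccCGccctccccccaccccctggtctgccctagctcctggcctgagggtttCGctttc

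The Tnfrsf4 window holds 5 CpG and the Tnfrsf18 window 2, against a median of 6 over the 32851 mouse windows of this length in the RefSeq set. The Tnfrsf1b window holds 12 CpG, and 66.5% of all windows hold fewer. Fas had 11, Tnfrsf1a 9, Cd27 5 and each of the 2 annotated Tnfrsf9 starts 4. The AP-1 letters TGANTCA, searched on both strands, occur in 2 of the 8 windows, that of the second Tnfrsf9 start and that of Fas, and in 6.75% of all windows. These are matches of letters and were not tested as binding sites.

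Tnfrsf18 encodes GITR, a costimulatory receptor. Its probe set read 2386, 2147 and 2176 in the Ezh2 deficient arrays, against 2814, 2722 and 2602 in the Ezh2 fl/fl arrays. Every deficient array was below every control array. The means were 2236 ± 130.4 in Ezh2 deficient and 2713 ± 106 in Ezh2 fl/fl cells (SD, n = 3 each), which puts the deficient cells at 82.4% of the controls. The log2 difference was -0.27 (SE 0.072, 95% interval -0.44 to -0.11), with a limma p of 0.00411 and an adjusted p of 0.520. An exact permutation test over the 6 arrays gave p = 0.10, the smallest this design allows. Without Ezh2 fl/fl replicate 1 the difference was -0.25 (adjusted p = 0.624).

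Tnfrsf4, which encodes OX40, read 1163, 1206 and 1120 in the Ezh2 deficient arrays, against 1477, 1407 and 1362 in the Ezh2 fl/fl arrays. Here too the groups did not overlap, and the deficient arrays lay close together. The means were 1163 ± 43.0 in Ezh2 deficient and 1415 ± 58.1 in Ezh2 fl/fl cells (SD, n = 3 each), or 82.2% of the controls. The log2 difference was -0.27 (SE 0.079, 95% interval -0.45 to -0.095), with a limma p of 0.00697, an adjusted p of 0.578 and an exact permutation p of 0.10. In the fit without Ezh2 fl/fl replicate 1 it was -0.25 (adjusted p = 0.652). Over the 15 alternative settings the difference of Tnfrsf4 ran from -0.30 to -0.20 and that of Tnfrsf18 from -0.32 to -0.18. Both stayed negative and uncalled in each of them. With the deposited scaling centred on the median the unadjusted limma p was 0.0488 for Tnfrsf4 and 0.0721 for Tnfrsf18.

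**Figure D1:**
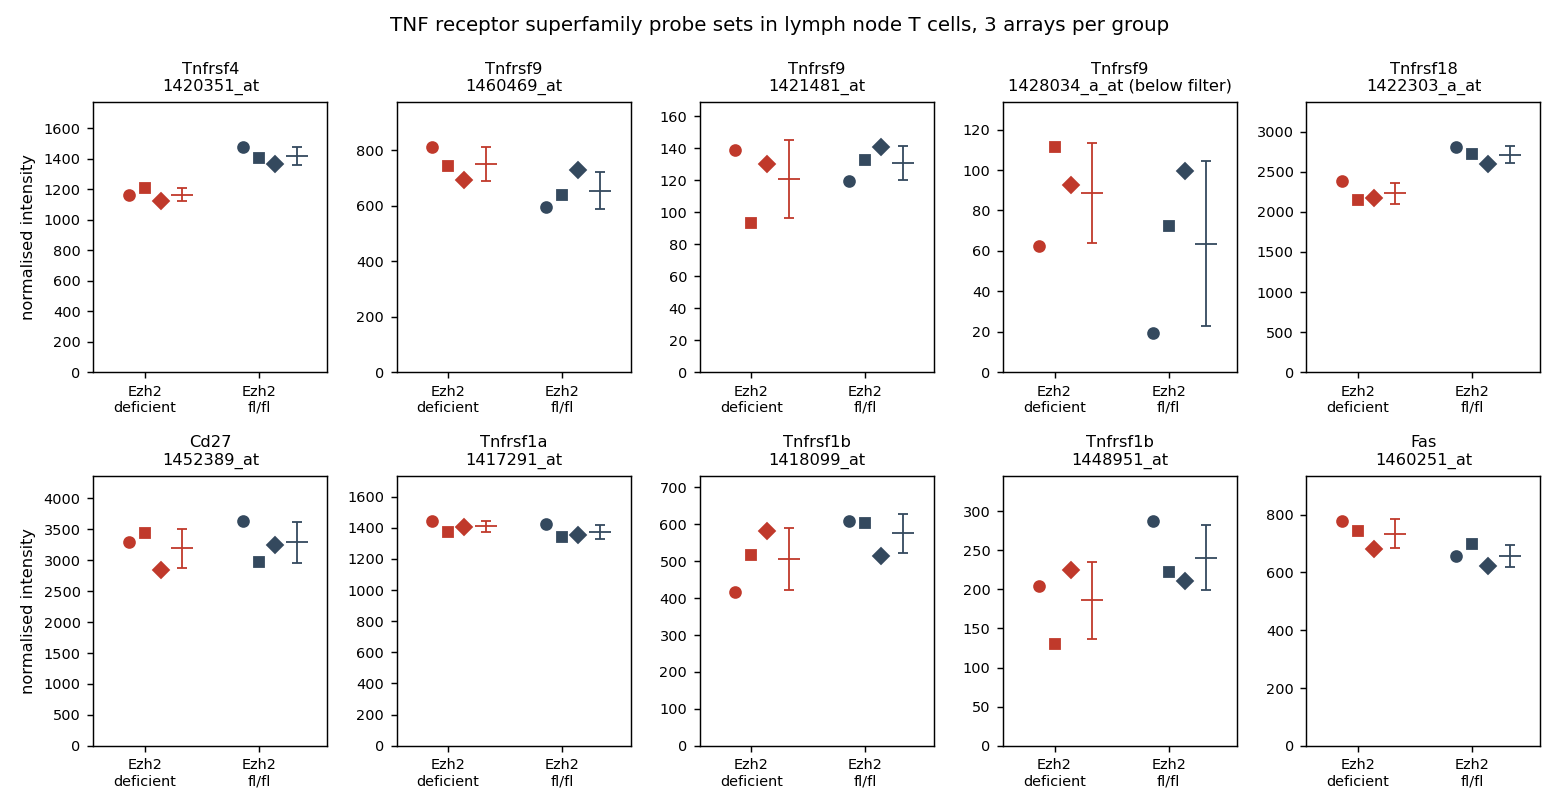
Normalised intensity (y axis, linear from 0) of the 10 receptor probe sets in the 3 Ezh2 deficient arrays (red, left) and the 3 Ezh2 fl/fl arrays (dark blue, right). Circles, squares and diamonds are replicates 1, 2 and 3 of each group, and bars are mean ± SD. The groups lie apart for Tnfrsf4 and Tnfrsf18 and overlap on the other 8 probe sets.

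Tnfrsf4 and Tnfrsf18 are adjacent protein-coding genes on chromosome 4 in the RefSeq annotation. The other genes around them, looked up after the receptor values were seen, did not share a common difference. Sdf4, just before Tnfrsf4, averaged 4126 in Ezh2 deficient and 4296 in Ezh2 fl/fl cells (log2 difference -0.060), and B3galt6 before it was at 0.16. Ttll10, just after Tnfrsf18, was at -0.12, and 9430015G10Rik beyond it at 0.058, all with overlapping groups. C1qtnf12, which precedes B3galt6, was at -0.25 with groups apart (adjusted p = 0.700).

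Tnfrsf9 encodes CD137, an activation-induced costimulator. Its brightest probe set read 812, 745 and 691 in the Ezh2 deficient arrays, against 596, 638 and 728 in the Ezh2 fl/fl arrays. Ezh2 fl/fl replicate 3 lay within the range of the deficient arrays. The means were 749.5 ± 60.6 in Ezh2 deficient and 654 ± 67.5 in Ezh2 fl/fl cells (SD, n = 3 each), with a log2 difference of 0.19 (95% interval -0.060 to 0.43, limma adjusted p = 0.736) and of 0.13 without Ezh2 fl/fl replicate 1. The next probe set was barely above the filter, which corresponds to an intensity of 113. It read 139, 93.3 and 130.2 in the Ezh2 deficient arrays, against 119.8, 132 and 141 in the Ezh2 fl/fl arrays, with a log2 difference of -0.097 (adjusted p = 0.930) that was -0.14 without Ezh2 fl/fl replicate 1. The probe set below the filter, whose name ending in _a_at marks one that can match alternative transcripts of a gene, read 62.3, 111 and 92.5 in the Ezh2 deficient arrays, against 19.2, 72.1 and 99.6 in the Ezh2 fl/fl arrays. Its log2 difference of 0.37 was 0.023 without Ezh2 fl/fl replicate 1. The 3 Tnfrsf9 probe sets thus did not share a direction, and none of them separated the groups. The name of the only Tnfrsf18 probe set also ends in _a_at.

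Cd27, a costimulator of naive T cells that binds Cd70, read 3293, 3446 and 2843 in the Ezh2 deficient arrays, against 3642, 2974 and 3254 in the Ezh2 fl/fl arrays. The groups overlapped over most of their range. The means were 3194 ± 314 in Ezh2 deficient and 3290 ± 335 in Ezh2 fl/fl cells (SD, n = 3 each). The log2 difference was -0.042 (95% interval -0.26 to 0.18, limma adjusted p = 0.941). It was 0.033 without Ezh2 fl/fl replicate 1 and 0.061 with the deposited scaling centred on the median.

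Among the receptors for TNF itself, Tnfrsf1a, the death domain receptor found on most cell types, varied little. It read 1446, 1372 and 1407 in the Ezh2 deficient arrays, against 1427, 1341 and 1356 in the Ezh2 fl/fl arrays. The means were 1408 ± 36.9 in Ezh2 deficient and 1375 ± 46.1 in Ezh2 fl/fl cells (SD, n = 3 each). The log2 difference was 0.034, with a 95% interval of -0.14 to 0.20 (limma adjusted p = 0.939). Without Ezh2 fl/fl replicate 1 the difference was 0.061. The interval from all 6 arrays was the second narrowest of the 9 tested, after that of Tnfrsf18.

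Tnfrsf1b, the TNF receptor that lacks a death domain, had a negative difference on both of its probe sets. The brighter one read 416, 518 and 582 in the Ezh2 deficient arrays, against 610, 603 and 514 in the Ezh2 fl/fl arrays. The dimmer one read 204, 130.5 and 224 in the Ezh2 deficient arrays, against 288, 222 and 211 in the Ezh2 fl/fl arrays. On each of them the lowest array was a deficient one, but a different one each time, and the groups overlapped. The log2 differences were -0.18 (95% interval -0.49 to 0.12, limma adjusted p = 0.800) and -0.32 (95% interval -0.76 to 0.12, adjusted p = 0.754). Without Ezh2 fl/fl replicate 1 they were -0.14 and -0.20. The brighter one was at -0.059 without Ezh2 deficient replicate 1, and the dimmer one at -0.13 without Ezh2 deficient replicate 2, so each difference leaned on a single deficient array.

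Fas, which starts apoptosis when bound by Fas ligand, read 779, 743 and 682 in the Ezh2 deficient arrays, against 657, 697 and 621 in the Ezh2 fl/fl arrays. One control array lay within the deficient range. The means were 735 ± 49.4 in Ezh2 deficient and 658 ± 38.2 in Ezh2 fl/fl cells (SD, n = 3 each). The log2 difference was 0.15 (95% interval -0.072 to 0.37, limma adjusted p = 0.772). It was also 0.15 without Ezh2 fl/fl replicate 1. For 7 of the 9 tested probe sets the interval spans 0, and it bounds the size of any change rather than showing that there was none.

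**Figure D2:**
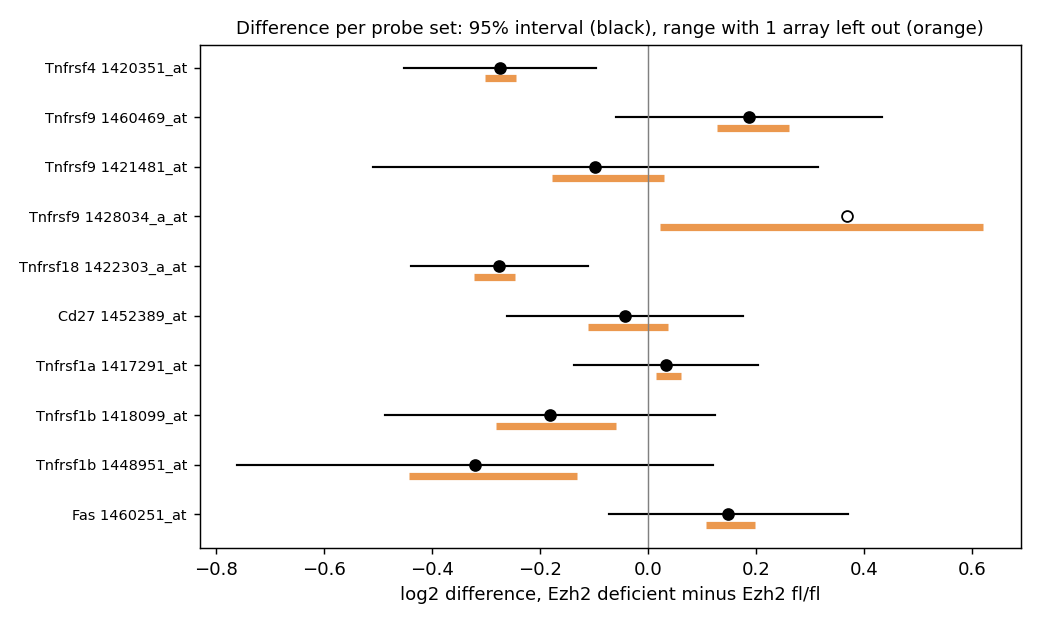
Log2 difference (x axis, Ezh2 deficient minus Ezh2 fl/fl) for each receptor probe set. Points are the estimates, black lines the 95% intervals of limma, orange bars the range when 1 of the 6 arrays is left out, and the open point is the Tnfrsf9 probe set below the filter. The intervals of Tnfrsf4 and Tnfrsf18 lie below 0, and the orange bars of Cd27 and of the dim tested Tnfrsf9 probe set cross 0.

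Since Tnfrsf18 and Tnfrsf4 are prominent on regulatory T cells and after activation, the markers of both states are set beside them. Foxp3, the defining transcription factor of regulatory T cells, read 305, 255 and 228 in the Ezh2 deficient arrays, against 340.1, 322 and 318 in the Ezh2 fl/fl arrays. Its groups did not overlap, and its log2 difference of -0.28 (limma adjusted p = 0.706) was close to those of the 2 receptors. Il2ra, the high-affinity interleukin 2 receptor chain, was at -0.28 on its brighter probe set with overlapping groups (adjusted p = 0.739) and at -0.073 on its other one. Ctla4, an inhibitory receptor that regulatory T cells express strongly, went the other way, with 2104, 2202 and 1725 in the Ezh2 deficient arrays against 1536, 1565 and 1429 in the Ezh2 fl/fl arrays (log2 difference 0.40, adjusted p = 0.520).

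Of the 17 regulatory T cell markers tested, 9 had a negative and 8 a positive difference (median -0.18), and 0 were called, where 0% of the 12275 tested genes were called when each entered with its brightest probe set. At an unadjusted limma p under 0.05, 5 were lower and 2 higher, or 7 of 17, where 8.21% of all genes passed in either direction. The smallest p belonged to Lgals1 at -0.73, the actin-capping gene Capg at -0.88 and the integrin gene Itgae at -0.75. On these probe sets the groups lay apart. The other Capg probe set was at -0.45 with groups apart. The other Itgae probe set was at -0.41 with overlapping groups (limma adjusted p = 0.712). By brightest probe set, groups lay apart on the lower side for 6 markers in all, against 7.80% of all genes. On the higher side they did for 2, against 6.40%. The list, like the others here, was chosen with earlier results of these data known. Its counts beside the shares over all genes are therefore a description only. The summed intensity of the list was 15461 to 18351 in the Ezh2 deficient arrays and 18367 to 19989 in the Ezh2 fl/fl arrays. This gap was narrow. Without Lgals1, the marker with the largest difference in mean intensity, the sums overlapped. They were then 12493 to 15220 in the Ezh2 deficient arrays and 13612 to 14456 in the Ezh2 fl/fl arrays. No other marker was left out, so the gap cannot be credited to Lgals1 alone. Whether the share of regulatory T cells plays a part in the Tnfrsf4 and Tnfrsf18 values was not tested, and in bulk RNA fewer cells of a type and less RNA per cell cannot be told apart.

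Of 20 tested T cell activation genes, 14 had a positive and 6 a negative difference (median 0.055), and 0 were called. With the deposited scaling centred on the median 18 were higher and 2 lower (median 0.15), where 7653 of all 12273 genes were higher. At an unadjusted limma p under 0.05, 3 were higher and 0 lower, against 3.92% and 4.29% of all genes. Cd69, an early activation receptor, averaged 9188 ± 735 in Ezh2 deficient and 7010 ± 297 in Ezh2 fl/fl cells (log2 difference 0.39, adjusted p = 0.311), and the transcription factor gene Egr2 was at 0.26 (adjusted p = 0.636). The third was Tnfaip3, given below. These 3 genes stood on the opposite side of 0 from Tnfrsf4 and Tnfrsf18. They were on the same side as the brightest Tnfrsf9 probe set and Fas. The 6 genes of the list with a negative difference, Il2ra at -0.28 among them, were on the side of Tnfrsf4 and Tnfrsf18. Among markers of other cell types, the summed intensity of dendritic cell markers was 2968 to 3947 in the Ezh2 deficient arrays and 2224 to 2958 in the Ezh2 fl/fl arrays, with Ccl17, Flt3 and Batf3 of these 12 below the filter. Without Fscn1 these sums overlapped, at 2103 to 2625 in the Ezh2 deficient arrays and 2025 to 2119 in the Ezh2 fl/fl arrays. That of the 4 CD4 T cell markers was 6681 to 8048 in the Ezh2 deficient arrays and 6104 to 6426 in the Ezh2 fl/fl arrays. It was carried by Izumo1r, also on the list of regulatory T cell markers, at 0.57, while Cd4 was at -0.036, Zbtb7b at -0.078 and Cd40lg at -0.14. The sums without Izumo1r overlapped, at 3332 to 3791 in the Ezh2 deficient arrays and 3390 to 4078 in the Ezh2 fl/fl arrays. The 3 CD8 T cell markers summed to 21175 to 22481 in the Ezh2 deficient arrays and 23237 to 24023 in the Ezh2 fl/fl arrays, and without Cd8b1 these sums overlapped too. All 3 had a negative difference. The part of these differences in the receptor values was not tested. Erythroid markers, with 2 genes read, summed to 179 to 214 in the Ezh2 deficient arrays and 224 to 299.7 in the Ezh2 fl/fl arrays. Alas2 of these lay below the filter, so the sum was nearly all Hba-a1. Without Hba-a1 the sums overlapped, at 4.12 to 11.6 in the Ezh2 deficient arrays and 4.25 to 17.25 in the Ezh2 fl/fl arrays. The summed levels of B cell, myeloid, natural killer cell and stromal markers overlapped between the groups. Without Pecam1 the stromal sums lay apart, at 486 to 584 in the Ezh2 deficient arrays and 364 to 467 in the Ezh2 fl/fl arrays. Cdh5, Col3a1 and Vwf of that list lay below the filter. The natural killer cell sum is mostly Klrd1, at 0.11. Of the 5 such markers tested 4 had a positive difference, while Ncr1 and Klra8 lay below the filter. Xcl1 at 0.68 (limma adjusted p = 0.532) and Gzma at 0.63 (adjusted p = 0.584) had groups that lay apart. Over all genes 6.40% lay apart on the higher side.

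**Figure D3:**
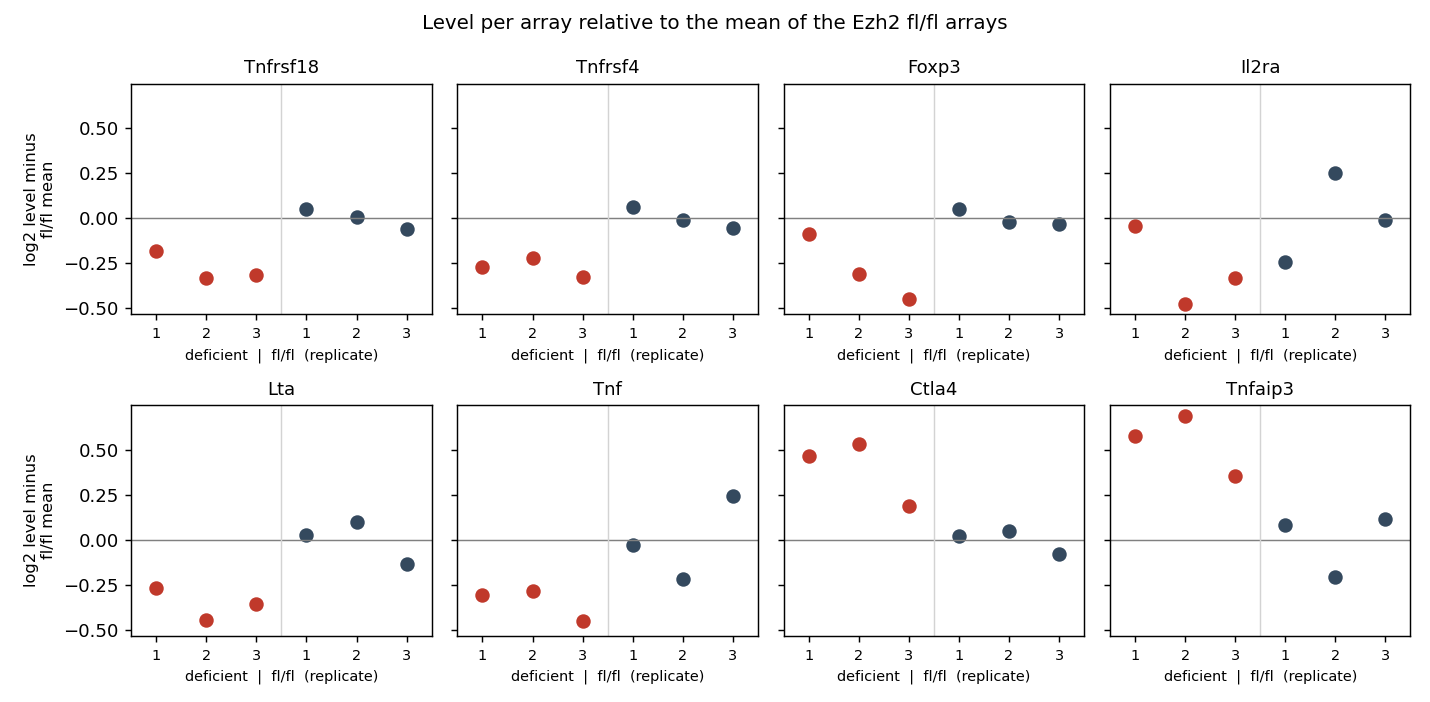
Log2 level of 8 genes in each array minus the mean of the Ezh2 fl/fl arrays (y axis), with the 3 Ezh2 deficient arrays (red) left of the 3 Ezh2 fl/fl arrays (dark blue). In the deficient arrays Tnfrsf18 ran from -0.33 to -0.18, Tnfrsf4 from -0.33 to -0.22 and Foxp3 from -0.45 to -0.087, while Ctla4 ran from 0.19 to 0.53 and Tnfaip3 from 0.36 to 0.69.

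The other receptors of the family leaned to the lower side without a call. Of 13 tested, 10 had a negative and 3 a positive difference. Their median was -0.22, against -0.010 over all tested genes, of which 53.1% were lower. Under the deposited scaling 11 were lower, and 9 with its median centring. Without Ezh2 fl/fl replicate 1 the count stayed at 10. At an unadjusted limma p under 0.05, 1 was higher and 0 lower, against 3.92% and 4.29% of all genes. That 1 was Tnfrsf14, the receptor for LIGHT, with 678, 885 and 842 in the Ezh2 deficient arrays against 681, 458 and 687 in the Ezh2 fl/fl arrays (log2 difference 0.39, adjusted p = 0.677). Its groups overlapped through deficient replicate 1. Tnfrsf8, which encodes CD30, averaged 114 ± 40.4 in Ezh2 deficient and 156 ± 16.9 in Ezh2 fl/fl cells, near the filter (log2 difference -0.38, adjusted p = 0.741). Tnfrsf21, a death domain receptor, averaged 240 ± 29.0 in Ezh2 deficient and 286 ± 26.3 in Ezh2 fl/fl cells (log2 difference -0.22, adjusted p = 0.762). The groups lay apart for these 2 alone of the 13, a share near the 14.2% over all genes. The brightest of the list, Relt, was at -0.069, and Tnfrsf25, the receptor for TL1A, at -0.23 with overlapping groups. Cd40, Tnfrsf10b, Tnfrsf11b, Tnfrsf17, Ngfr, Eda2r and Edar lay below the filter.

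Ligands of the family went in both directions. Of 12 tested, 7 were higher and 5 lower (median 0.12), where 53.1% of all genes were lower, and 0 were called. At an unadjusted limma p under 0.05, 2 were lower and 0 higher, against 4.29% and 3.92% of all genes. The 2 lower ones both bind the TNF receptors Tnfrsf1a and Tnfrsf1b. Lta, which encodes lymphotoxin alpha, read 587, 515 and 549 in the Ezh2 deficient arrays, against 729, 771 and 649 in the Ezh2 fl/fl arrays (log2 difference -0.35, adjusted p = 0.589). Tnf read 561, 570.1 and 504 in the Ezh2 deficient arrays, against 688, 600.4 and 840.0 in the Ezh2 fl/fl arrays (log2 difference -0.35, adjusted p = 0.636). On the lower side the groups lay apart for these 2 of the 12, against 7.80% of all genes. On the higher side they lay apart for 1, Tnfsf9, against 6.40%. Tnfsf11, which encodes RANK ligand, was at 0.42 with overlapping groups. The ligands of the 7 receptors are named here after their values were seen. Tnfsf9, the ligand of Tnfrsf9, averaged 197 ± 61.3 in Ezh2 deficient and 136 ± 6.80 in Ezh2 fl/fl cells (log2 difference 0.39, groups apart, limma adjusted p = 0.712). It read 169, 154 and 267 in the Ezh2 deficient arrays, against 134, 144 and 130 in the Ezh2 fl/fl arrays. These values are near the filter, with deficient replicate 3 well above the rest. Tnfsf4, the ligand of Tnfrsf4, was at 0.21 with overlapping groups. Fasl was at 0.18 on its brighter probe set and at -0.23 on its other one, both with overlapping groups. Cd70 lay below the filter, and Tnfsf18, the ligand of Tnfrsf18, had no probe set with its symbol alone.

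Downstream of the receptors, the 27 tested adaptors and signalling genes had 15 positive and 12 negative differences (median 0.035), and 0 were called. With the deposited scaling centred on the median only 6 were lower, where 4620 of all 12273 genes were lower. Without Ezh2 fl/fl replicate 1 there were 14 lower. At an unadjusted limma p under 0.05, 1 was higher and 0 lower, against 3.92% and 4.29% of all genes. Groups lay apart on the higher side for 3, Tnfaip3, Traf1 and Traf6, against 6.40% of all genes. They lay apart on the lower side for 2, Sharpin and Ikbkb, against 7.80%. Tnfaip3, the NF-kappaB-induced inhibitor of this signalling, read 5445, 5879 and 4660 in the Ezh2 deficient arrays, against 3854, 3147 and 3946 in the Ezh2 fl/fl arrays. Its log2 difference was 0.54 (SE 0.11, adjusted p = 0.344), and its other probe set was at 0.70 with groups apart as well. Traf1, an adaptor that binds Tnfrsf1b and Tnfrsf9 and is itself induced by NF-kappaB, read 2290, 2291 and 2320 in the Ezh2 deficient arrays, against 2162, 2083 and 2047 in the Ezh2 fl/fl arrays. The groups lay apart, but the log2 difference was small at 0.13 (adjusted p = 0.712), and the other Traf1 probe set was at 0.12 with overlapping groups. Daxx, which was described as a Fas-binding protein, was at 0.38 with overlapping groups (adjusted p = 0.710).

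**Figure D4:**
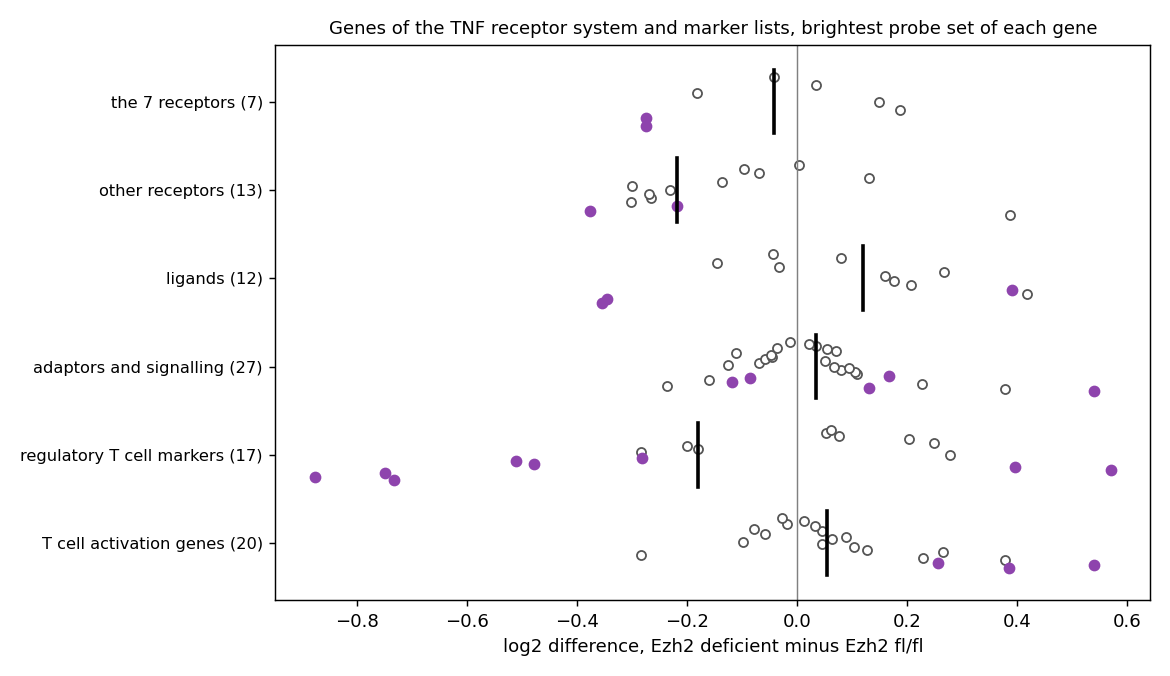
Log2 difference (x axis, Ezh2 deficient minus Ezh2 fl/fl) of each gene by its brightest probe set, for the 7 receptors, the other receptors, ligands, adaptors and signalling genes, regulatory T cell markers and activation genes, with the number tested in brackets. Filled points are genes whose groups do not overlap, and black bars are list medians, at -0.042 for the 7 receptors and -0.22 for the other receptors.

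The genes whose values over the 6 arrays were most like those of a receptor are given as a description, by the Pearson correlation of log2 values among 22002 named probe sets. For Tnfrsf4 these were Rap2b (r = 0.99) and BC004004 (r = 0.99), and for Tnfrsf18 Ier5 (r = 0.99) and Wasl (r = 0.99). For Tnfrsf9 they were Chid1 and Rdh5, for Cd27 U2surp and Nap1l1, for Tnfrsf1a Uqcrq and Srgap3, for Tnfrsf1b B3galnt2 and Gclc, and for Fas Lyst and Cldnd1, with r from 0.986 to 0.996 for these. These are the highest values of a search over 22002 probe sets, with only 6 points for each r. At the lower mark of r = 0.95, between 21 (Tnfrsf1a) and 68 (Tnfrsf18) probe sets exceeded it for a receptor. For Tnfrsf4 and Tnfrsf18 the 6 points fall into the 2 groups.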

How the data were processed

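Gene expression in 6 lymph node T cell samples was taken from the deposited table of intensities, 1 per probe set and array on a linear scale. How the authors computed these intensities is not stated in the sources used here. The authors had scaled the arrays: without the top and bottom 2% of values, each averaged 500.002. Because the medians differed by 15.2%, above a tolerance of 10%, the arrays were quantile normalised, and log2(intensity + 43.3) was taken, where 43.3 is the 20th percentile of all values.

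The 64 control probe sets and probe sets with a mean log2 value below the 40th percentile were left out, which left 27022. Each was tested with limma 3.58.1 in R 4.3.3 (eBayes with an intensity trend, no covariate, 4 residual degrees of freedom, two-sided, Benjamini-Hochberg over all tested). The limma step was tested on simulated data. The number of arrays limits the precision. Gene names came from the platform annotation. For lists, a gene entered with its brightest tested probe set. All probe sets of the 7 receptors are given. Of each list, called genes or else the 3 of smallest p were named, with the 3 brightest other receptors, and Ezh2, Foxp3, Il2ra, Ctla4, Cd69, Traf1 and Tnfaip3 in any case. The members and lists were chosen with earlier results of these data known. Upstream sequences came from RefSeq (GRCm38.p6), where all 7 genes matched. The alternatives were 2 other scalings, pseudocounts 4 times lower and higher, no filter and a stricter one (60th percentile), array weights, eBayes in its robust form (statmod 1.5.0) or with no trend, and each array left out in turn. Dropped arrays were left out before normalisation.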

Additional observations from a re-analysis of the deposited data

How the results depend on the processing

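The number of receptor probe sets called and of listed genes called was 0 in each of the 15 alternatives. The number of probe sets called over the whole table, 1 in the main setting, was 3 with the deposited scaling, 2 with its median centring, 3 by robust eBayes and 3 with array weights, and it ran from 1 to 6 over the runs that each omit 1 array. It was 3 where Ezh2 fl/fl replicate 1 was omitted and 6 where Ezh2 deficient replicate 2 was. The cause was not tested. The Ezh2 difference kept its direction and an unadjusted p under 0.05 in all 15, at -1.28 to -0.91. Its adjusted limma p, 0.0705 in the main setting, passed the 0.05 threshold in 4 of them, at 0.0306 where Ezh2 fl/fl replicate 1 was omitted, 0.0346 with weighted arrays, 0.0421 with the deposited scaling and 0.04997 by eBayes in its robust form. It reached 0.263 where Ezh2 deficient replicate 3 was omitted. Of the 10 receptor probe sets, 8 kept the sign of their difference in all 15. Cd27 turned to 0.061 with the median centring, to 0.038 when Ezh2 deficient replicate 3 was omitted and to 0.033 when Ezh2 fl/fl replicate 1 was, and ran from -0.11 to 0.038 over all such runs. The dim tested Tnfrsf9 probe set turned to 0.029 without Ezh2 deficient replicate 2, in a range of -0.18 to 0.029. Leaving out Ezh2 fl/fl replicate 1 for the signs of the lists, and 1 gene out of each marker sum, was chosen after seeing the data. No paired analysis was possible because no replicate number is shared between the groups in the sample titles. Dim probe sets, such as those of Tnfrsf9 near the filter, are limited by signal over background.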
